A study of Homo sapiens with 3 samples.

Results

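Genes of glycolysis and of the hypoxia response were followed on 3 Affymetrix expression arrays of khES3, an established line of human embryonic stem cells. The genes were chosen by name, as 37 genes that encode glycolytic enzymes and their regulators, glucose and lactate carriers, pyruvate dehydrogenase kinases, the transcription factor subunit HIF1A and targets of that factor outside glycolysis. Of the 37, 34 had probe sets named for them alone, 79 probe sets of the 54675 on the array, and SLC16A1, SLC16A3 and CA9 were not analysed here. All groups were undifferentiated khES3 cells cultured for 5 hours, in medium deprived of leucine, in medium deprived of lysine, or in complete medium, with 1 array per medium. Leucine and lysine are essential amino acids. With 1 array a group no test between media was possible, no p-value is given, and differences have no replicate check. All samples came from 1 cell line, so the values describe these 3 arrays. A difference in a bulk sample may come from fewer cells that carry an RNA or from less of it per cell, and these cannot be told apart.

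Glycolysis splits glucose into pyruvate in the cytosol and yields ATP without oxygen, and lactate dehydrogenase then turns pyruvate into lactate. HIF1A is made all the time and, in the presence of oxygen, is hydroxylated by the EGLN prolyl hydroxylases and destroyed. When oxygen is low it persists, pairs with ARNT and binds the core motif ACGTG or GCGTG near genes of glycolysis, mitophagy, blood vessel growth and pH control. Human embryonic stem cells in the pluripotent state are known for a high rate of glycolysis. Amino acid shortage acts on other genes through the transcription factor ATF4, and some genes, VEGFA among them, are known targets of both ATF4 and HIF.

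Values are deposited signal intensities per probe set, and differences are in log2 signal, after dim values were raised to a floor at the 40th percentile of each array. Each gene was read from its brightest probe set, and this probe set was above the floor on all 3 arrays for all 34 genes. A level filter at the median kept 64 of the 76 probe sets of these genes that are not array controls. The other 12, of 9 genes, were dim, and 7 of them lay at the floor on all 3 arrays. The only spread these arrays give is that between probe sets of 1 gene, with a pooled SD of the difference of 0.49 for leucine-deprived minus complete and 0.57 for lysine-deprived minus complete over 5981 genes. Among probe sets as bright as the brightest 10% of genes it was 0.13 and 0.23, over 280 genes.

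Markers of pluripotent cells were present on all 3 arrays, with some differences between media. The 12 pluripotency markers with probe sets, among them NANOG, SOX2 and LIN28A, were above the floor on each array, while POU5F1 and TDGF1 were not analysed here. The summed signal of the 12 was 266142 on the leucine-deprived, 267453 on the lysine-deprived and 253701 on the complete-medium array. Their median difference over complete medium was 0.13 after leucine and 0.02 after lysine removal. The lowest of them, GDF3, was at -0.62 and -1.45. Of 10 fibroblast and feeder markers 4, 3 and 2 lay at the floor in the same order, with summed signals of 25905, 29743 and 28320. Of 14 markers of differentiated cells 4, 5 and 6 lay at the floor, with summed signals of 1403, 1596 and 1228. Of those kept and above the floor on both arrays, 3 of 5 were above 0 after leucine removal, with a median of 0.12. After lysine removal 5 of 6 were, with a median of 0.61 and a range from -0.75 (AFP) to 1.41 (TBXT). The part of these marker differences in the results was not tested. The array controls for RNA integrity include GAPDH itself: its 3′ end had a signal of 87884 on the leucine-deprived, 88250 on the lysine-deprived and 83388 on the complete-medium array, and its 5′ end 71469, 70335 and 77109. For ACTB the ratios of 3′ to 5′ signal were 7.55, 11.2 and 5.44. The ratios of both genes were higher on both deprived arrays, and most so for ACTB on the lysine-deprived array. Their part in the differences below was not tested.

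Promoter sequence was set beside the array values because HIF binds its core motif near its target genes. RefSeq windows of the 250 bases before the start of transcription (GRCh38.p14) were found for 32 of the 37 genes; PFKFB2, SLC2A3, SLC16A1, BNIP3L and NDRG1 had no entry. Both strands were searched for ACGTG and GCGTG, so that the palindrome CACGTG counts on each strand. Of the 32 genes 27 (84.4%) held a core in at least 1 window, against 47.4% of 27305 genes. Counted by window, it was 36 of 60 against 43.2% of all 35116 windows. By class, 14 of 17 glycolytic enzyme genes and 7 of 8 non-glycolytic HIF targets held a core. By window it was 19 of 37 (51.4%) for the enzymes, nearer to the 43.2% of all windows, and 8 of 9 (88.9%) for the HIF targets. The 8 HIF target genes include CA9, which was not analysed on the arrays, and leave out BNIP3L and NDRG1. The 32 genes include SLC16A3, also not analysed there. As the HIF targets were listed as such, a high share among them is no independent result. A gene with several listed starts has several windows in which a core can occur. ATF4 binds elements of the kind TGATGNAA. This element was in windows of 1 gene of the 32 (3.13%), HK1, against 3.89% of all genes. Both HIF cores contain CG, and the shares were not adjusted for base composition. The windows of 5 genes with 1 listed start each are printed along the gene's strand, with HIF cores in capitals. PGK1 and ALDOC are enzyme genes that were lower on both deprived arrays, BNIP3 and ANKRD37 are HIF targets that were lower on both, and ADM is the HIF target that was at least 1.5-fold higher on both.
PGK1, chrX:78103998-78104247, plus strand: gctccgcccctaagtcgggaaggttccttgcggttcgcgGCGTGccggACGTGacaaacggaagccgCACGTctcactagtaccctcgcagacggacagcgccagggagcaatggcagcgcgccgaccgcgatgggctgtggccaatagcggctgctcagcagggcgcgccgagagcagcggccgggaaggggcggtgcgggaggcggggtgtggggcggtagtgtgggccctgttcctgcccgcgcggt
ALDOC, chr17:28576896-28577145, minus strand: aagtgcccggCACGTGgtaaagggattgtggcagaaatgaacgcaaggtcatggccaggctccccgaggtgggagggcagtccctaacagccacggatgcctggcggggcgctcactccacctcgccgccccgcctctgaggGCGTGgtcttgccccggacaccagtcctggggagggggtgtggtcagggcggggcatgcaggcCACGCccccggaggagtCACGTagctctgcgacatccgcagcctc
BNIP3, chr10:131981924-131982173, minus strand: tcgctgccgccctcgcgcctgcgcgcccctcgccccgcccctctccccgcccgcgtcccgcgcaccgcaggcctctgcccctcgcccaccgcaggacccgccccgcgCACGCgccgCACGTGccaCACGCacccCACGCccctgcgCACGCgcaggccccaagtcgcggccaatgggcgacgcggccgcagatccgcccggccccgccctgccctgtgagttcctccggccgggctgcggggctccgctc
ANKRD37, chr4:185396591-185396840, plus strand: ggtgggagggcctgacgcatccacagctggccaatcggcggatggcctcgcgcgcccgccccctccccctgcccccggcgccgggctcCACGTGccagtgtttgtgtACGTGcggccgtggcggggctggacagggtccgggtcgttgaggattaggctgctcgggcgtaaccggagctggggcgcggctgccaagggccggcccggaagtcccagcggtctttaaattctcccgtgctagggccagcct
ADM, chr11:10304823-10305072, plus strand: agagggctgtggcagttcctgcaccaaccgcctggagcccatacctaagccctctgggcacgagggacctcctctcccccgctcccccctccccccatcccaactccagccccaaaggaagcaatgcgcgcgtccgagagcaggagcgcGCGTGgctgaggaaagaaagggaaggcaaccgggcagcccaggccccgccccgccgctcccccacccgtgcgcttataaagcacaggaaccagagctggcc
The PGK1 window held 3 cores, that of ALDOC 5, that of BNIP3 6 and that of ANKRD37 3. The ADM window held 1, whose first base lies 101 bases before the start. The printed windows of lower genes hold more cores than the other windows of such genes with 1 listed start. Of these others, EGLN3 and PGAM1 held 0, GPI, PFKL, P4HA1 and PFKFB4 1 each, and ENO1 and PDK3 2 each. EGLN1 and ENO2, higher on both, held 1 each. The printed windows thus do not compare lower with higher genes. A match is a description of letters and shows neither binding nor a cause of the array values.

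The first question is whether the glycolytic enzymes differed after leucine or lysine removal. The differences were small, and mostly downward after lysine removal. After leucine removal 10 of 17 were downward, not far from the share of all genes, and the sign of the median depends on which enzymes and probe sets are kept. The median was 0.085 over the 8 enzymes left without _x_at and _s_at probe sets, which may match several transcripts. The other enzymes drop out there, and TPI1 was read from its dimmest probe set, at 0.79 in place of -0.16. The 17 enzyme genes had a median difference of -0.10 for leucine-deprived minus complete, with a range from -0.42 to 0.34, and of -0.18 for lysine-deprived minus complete, with a range from -0.63 to 0.55. Over all genes the medians were 0.01 (12297 genes) and 0.01 (12227 genes). Below 0 lay 10 of 17 enzymes on the leucine-deprived array, against 48.3% of all genes, and 14 of 17 on the lysine-deprived array, against 49.3%. Of the 17, 10 were below 0 on both. Both differences share the complete-medium array, and the share of all genes below 0 on both is not given here. Past 1.5-fold (0.58 in log2 signal) there was 1 enzyme, ALDOC, lower on the lysine-deprived array, where 8.69% of all genes were, and 0 on the leucine-deprived array, where 5.97% were.

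**Figure D1:**
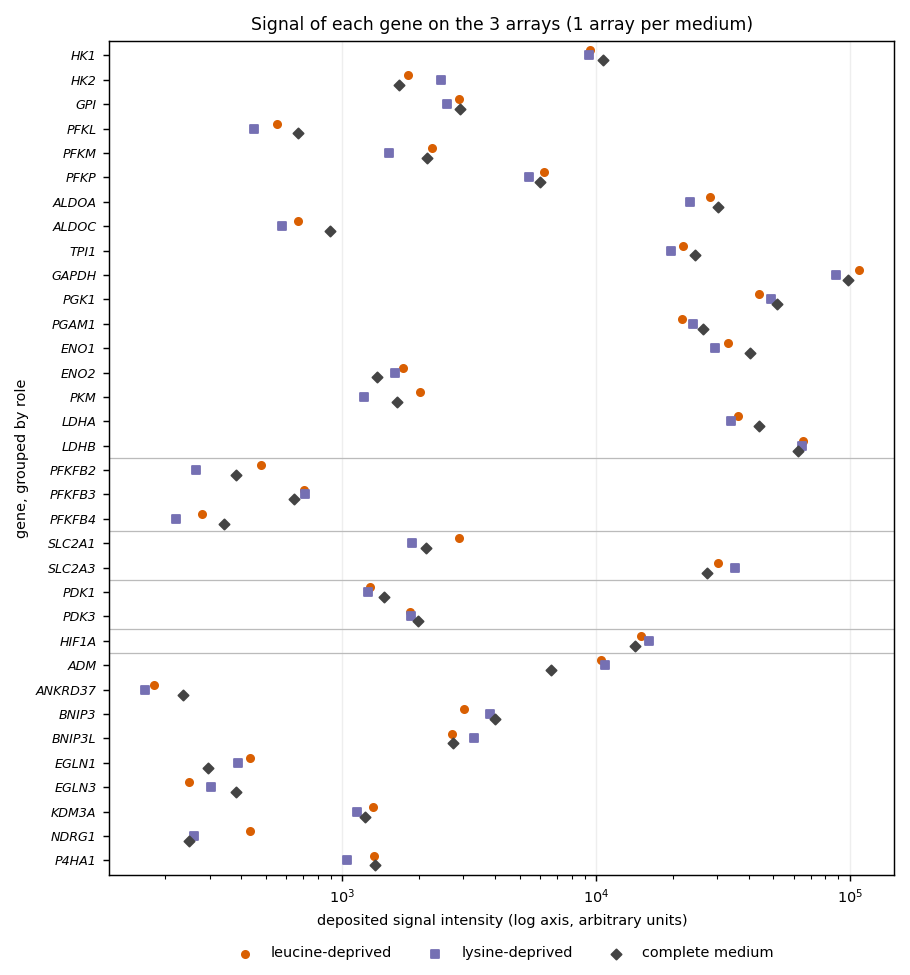
Deposited signal intensity (log axis, arbitrary units) of the brightest probe set of each of the 34 genes, with circles for the leucine-deprived, squares for the lysine-deprived and diamonds for the complete-medium array; lines part the roles. ADM lies higher on both deprived arrays, at 10476 and 10879 against 6630, and most other genes lie close together on the 3 arrays. Signals of different genes are not comparable.

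The first steps of glycolysis trap and rearrange the sugar. HK1, the constitutive hexokinase, had a signal of 9455 on the leucine-deprived, 9363 on the lysine-deprived and 10615 on the complete-medium array. HK2, the inducible hexokinase, stood apart from it, with 1806, 2443 and 1665. It was thus 0.12 and 0.55 above complete medium, the highest enzyme after lysine removal, at 1.47-fold. Of its other probe sets, 1 was 0.57 and 0.53 higher, whereas the next had 335, 315 and 315 and lay level with complete medium after lysine removal. GPI, which turns glucose phosphate into fructose phosphate, had 2880, 2574 and 2920 on the same arrays, a difference of -0.02 and -0.18.

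Phosphofructokinase commits the sugar to glycolysis and has 3 subunit genes. PFKM had a signal of 2258 on the leucine-deprived, 1531 on the lysine-deprived and 2145 on the complete-medium array, so that it was lower on the lysine-deprived array, by -0.49. PFKL had 553, 447 and 668, with differences of -0.27 and -0.58. Its other probe set gave 0.22 and -0.15, so its direction after leucine removal depends on the probe set. PFKP, the platelet-type subunit, had 6228, 5417 and 6004, and differed by 0.05 and -0.15. All 3 subunits lay below 0 after lysine removal and PFKL alone did so after leucine removal.

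Aldolase cleaves the sugar. ALDOC, the brain-type aldolase and a known HIF target, had a signal of 668 on the leucine-deprived, 577 on the lysine-deprived and 891 on the complete-medium array, 1.33-fold and 1.54-fold lower than complete medium. It was the lowest enzyme of the list on both arrays and rests on 1 probe set. ALDOA, the widespread form, had 28084, 23533 and 30135 on the same arrays, a difference of -0.10 and -0.36. Its 3 probe sets ranged from -0.10 to -0.01 and from -0.36 to 0.25.

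The enzymes from triose phosphate to lactate differed in how well their probe sets agreed. PGK1, phosphoglycerate kinase, which makes the first ATP of the pathway, had 5 kept probe sets, and each was lower on both deprived arrays. On the leucine-deprived array they ranged from -0.24 to -0.49. The brightest had 43827 on the leucine-deprived, 48938 on the lysine-deprived and 51835 on the complete-medium array. On the lysine-deprived array the same 5 ranged from -0.07 to -1.06, so the size there depends on the probe set.

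LDHA, the lactate dehydrogenase subunit known as a HIF target, had 36361 on the leucine-deprived, 34068 on the lysine-deprived and 44033 on the complete-medium array, with differences of -0.28 and -0.37. LDHB, the other subunit, had 65178, 64770 and 62190 and differed by 0.07 and 0.06, and its second probe set by -0.11 and -0.23. LDHA was thus lower on both deprived arrays on its 1 probe set, and the direction of LDHB depends on the probe set. PGAM1, the mutase, had 21884, 24055 and 26464, a difference of -0.27 and -0.14.

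ENO1, the main enolase, had 33131 on the leucine-deprived, 29327 on the lysine-deprived and 40492 on the complete-medium array, with differences of -0.29 and -0.47. All 3 kept probe sets were lower on both. On the lysine-deprived array they disagreed in size: 1 of them, with 11143, 4616 and 15015, differed by -1.70, and the others by -0.47 and -0.47. ENO2, the neuronal enolase, went the other way, with 1731, 1610 and 1369 and differences of 0.34 and 0.23. It was the highest enzyme after leucine removal and rests on 1 probe set.

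GAPDH had signals of 108346 on the leucine-deprived, 88336 on the lysine-deprived and 98270 on the complete-medium array. Its 3 probe sets were 0.02 to 0.14 higher after leucine removal and -0.18 to -0.13 different after lysine removal. The control probe set at its 3′ end was 0.08 higher on both arrays, and that at its 5′ end differed by -0.11 and -0.13. TPI1, triose phosphate isomerase, had 21897, 19809 and 24457 and differed by -0.16 and -0.30 on its brightest probe set, and by -0.26 and -0.31 on the next. Its dimmer one, with 469, 429 and 272, was 0.79 and 0.66 higher. PKM, pyruvate kinase, had 2028, 1221 and 1648 on its brighter probe set, with differences of 0.30 and -0.43. Its second, with 63.3, 193 and 163, gave -1.36 and 0.24, opposite on both arrays, so the 2 give no common direction for PKM. This second probe set was much dimmer, and near the floor of 56.7 on the leucine-deprived array.

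**Figure D2:**
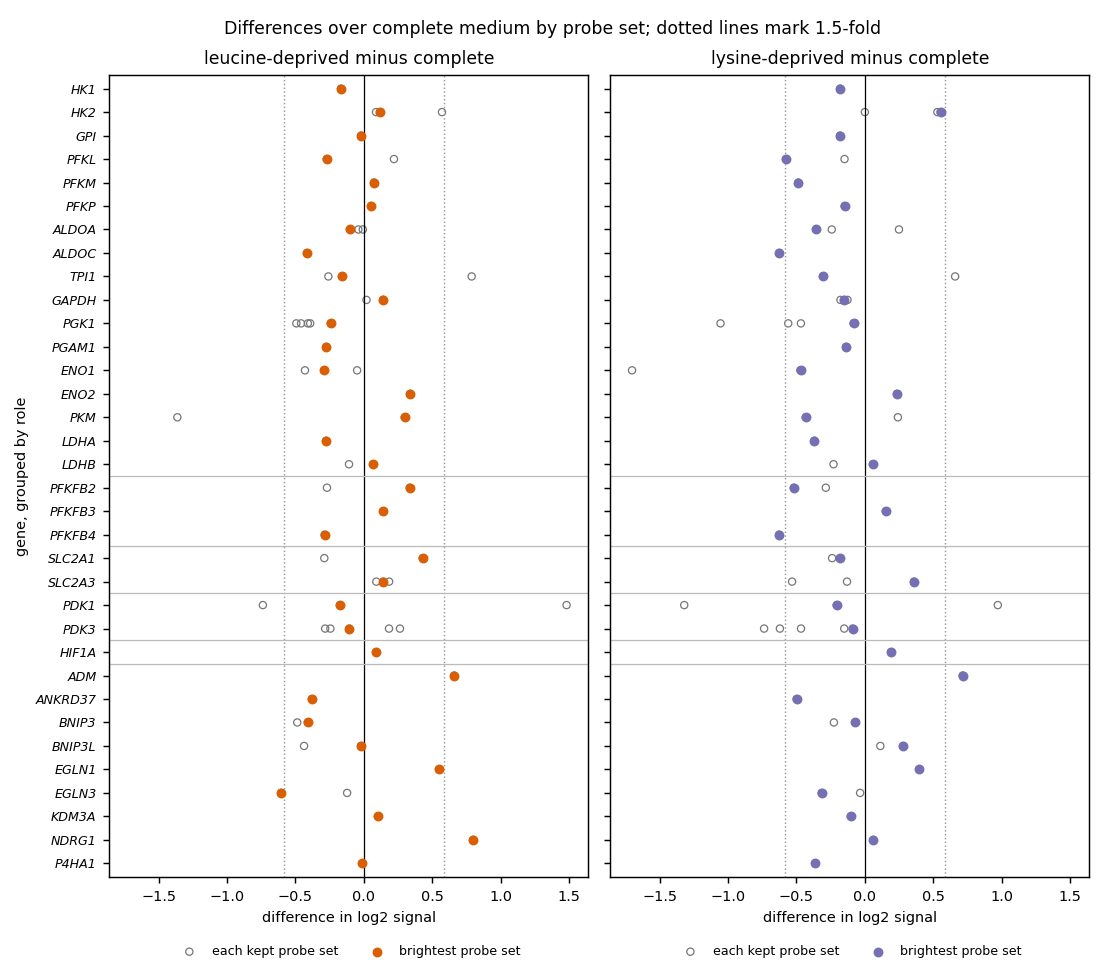
Difference in log2 signal of each gene over complete medium, for the leucine-deprived (left) and lysine-deprived array (right); filled circles are the brightest probe set, open circles the other kept probe sets (PDK1 has bounds, from values at the floor) and dotted lines 1.5-fold. PGK1 has all 5 probe sets below 0 in both panels, whereas PDK1, PKM and TPI1 have probe sets on either side.

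Because bright probe sets vary less, the enzymes were also read by brightness. The 10 enzymes in the brightest 10% of genes had a median of -0.16 after leucine removal, with 7 of 10 below 0, against a median of -0.03 over the 1297 genes of that brightness, of which 55.6% lay below 0. The middle 50% of those 1297 genes spanned -0.16 to 0.11. After lysine removal the same 10 enzymes had a median of -0.17, with 9 of 10 below 0, against a median of -0.04, 56.4% below 0 and a middle 50% from -0.21 to 0.15. The median of the bright enzymes thus lay near the lower edge of the middle 50% on both arrays. Single enzymes ran from -0.29 to 0.14 and from -0.47 to 0.06. The other 7 enzymes had medians of 0.07 and -0.43, against 0.02 and 0.02 over all genes below the brightest 10%. The middle 50% of those genes spanned -0.21 to 0.28 and -0.28 to 0.35.

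The regulators of glycolytic flux and the carriers varied in direction. The PFKFB enzymes make and break the allosteric activator of phosphofructokinase. PFKFB4, a hypoxia-induced form, had a signal of 281 on the leucine-deprived, 222 on the lysine-deprived and 342 on the complete-medium array, with differences of -0.29 and -0.63. It was 1.54-fold lower after lysine removal, and at -0.56, short of 1.5-fold, on the log2(value + 32) scale. PFKFB2, the heart form, had 480, 265 and 380, a difference of 0.34 after leucine and -0.52 after lysine removal. Its second kept probe set was lower on both arrays, by -0.27 and -0.29. PFKFB3, the inducible form, had 709, 714 and 642 and was higher by 0.14 and 0.15.

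SLC2A1, the GLUT1 glucose carrier, had a signal of 2884 on the leucine-deprived, 1886 on the lysine-deprived and 2140 on the complete-medium array, with differences of 0.43 and -0.18. Its dim probe set gave -0.29 and -0.24, so that the higher value after leucine removal rests on 1 probe set. SLC2A3, the high-affinity GLUT3 carrier, had a signal of 30201 on the leucine-deprived, 35112 on the lysine-deprived and 27377 on the complete-medium array. It was higher after leucine removal on each of its 3 probe sets, by 0.09 to 0.18. After lysine removal they ranged from -0.53 to 0.36.

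The pyruvate dehydrogenase kinases switch off the entry of pyruvate into mitochondria's citric acid cycle, and PDK1 is a known HIF target. PDK1 had a signal of 1290 on the leucine-deprived, 1263 on the lysine-deprived and 1457 on the complete-medium array, a difference of -0.18 and -0.21. Its 2 dimmer probe sets gave opposite answers. One lay at the floor in complete medium and was at least 2.79-fold and 1.96-fold higher; the other was 1.67-fold lower after leucine removal and, at the floor after lysine removal, at least 2.50-fold lower. PDK3, another of these kinases, had 1848, 1871 and 1990 and differed by -0.11 and -0.09 on its brightest probe set. All 5 of its probe sets were lower after lysine removal, by -0.09 to -0.74, and 3 of 5 after leucine removal.

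The second question is whether HIF targets outside glycolysis behaved like the enzymes. HIF1A itself had a signal of 15089 on the leucine-deprived, 16197 on the lysine-deprived and 14183 on the complete-medium array, 0.09 and 0.19 higher on 1 probe set. HIF1A is controlled mainly at the level of protein, which arrays do not measure. The 9 measured HIF targets had a median difference of -0.01 for leucine-deprived minus complete and of -0.07 for lysine-deprived minus complete, with 4 above and 5 below 0 on each array. Some stood higher and others lower, so the median hides a wide range, from -0.60 to 0.80 after leucine and from -0.50 to 0.71 after lysine removal.

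ADM, the precursor of the vasodilator peptide adrenomedullin, was the one gene of the 34 at least 1.5-fold higher on both deprived arrays, with a signal of 10476 on the leucine-deprived, 10879 on the lysine-deprived and 6630 on the complete-medium array. That is 1.58-fold and 1.64-fold higher, on 1 bright probe set. Under median centring ADM was 0.53 and 0.47 higher, short of 1.5-fold on both arrays, where the median of all genes was -0.12 and -0.24. EGLN1, the main oxygen-sensing hydroxylase, was higher on both as well, with 432, 389 and 295 and differences of 0.55 and 0.40. Its 3 other probe sets were dim: 1 was above the floor in complete medium alone, 1 on the lysine-deprived array alone and 1 on no array. NDRG1, a stress- and hypoxia-induced gene, had 432, 259 and 249. It was 1.74-fold higher on the leucine-deprived array and 0.06 different on the lysine-deprived one.

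The lower targets were EGLN3, BNIP3 and ANKRD37. EGLN3, a hydroxylase strongly induced by low oxygen, had a signal of 249 on the leucine-deprived, 305 on the lysine-deprived and 379 on the complete-medium array, with differences of -0.60 and -0.32, or 1.52-fold lower after leucine removal. Its other probe set differed by -0.12 and -0.03, and with the mean of both EGLN3 was at -0.36 after leucine removal, short of 1.5-fold. BNIP3, a receptor for the removal of mitochondria by autophagy, had 3009, 3808 and 3998, with differences of -0.41 and -0.07, and its second probe set gave -0.49 and -0.23. ANKRD37, an ankyrin repeat gene known for its induction by hypoxia, had 181, 167 and 236, with differences of -0.38 and -0.50. All kept probe sets of these 3 genes lay below 0 on both arrays.

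The remaining targets were nearer to complete medium or differed between the deprivations. BNIP3L, the paralog of BNIP3, had a signal of 2694 on the leucine-deprived, 3314 on the lysine-deprived and 2733 on the complete-medium array, a difference of -0.02 and 0.28, and its second probe set gave -0.44 and 0.11. P4HA1, a collagen prolyl hydroxylase subunit, had 1330, 1042 and 1340, lower after lysine removal by -0.36 and at -0.01 after leucine removal. KDM3A, a histone demethylase, had 1316, 1140 and 1225, a difference of 0.10 and -0.10. For each of these the deprived arrays differed from each other by less than 0.58, the SD between probe sets for that difference.

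**Figure D3:**
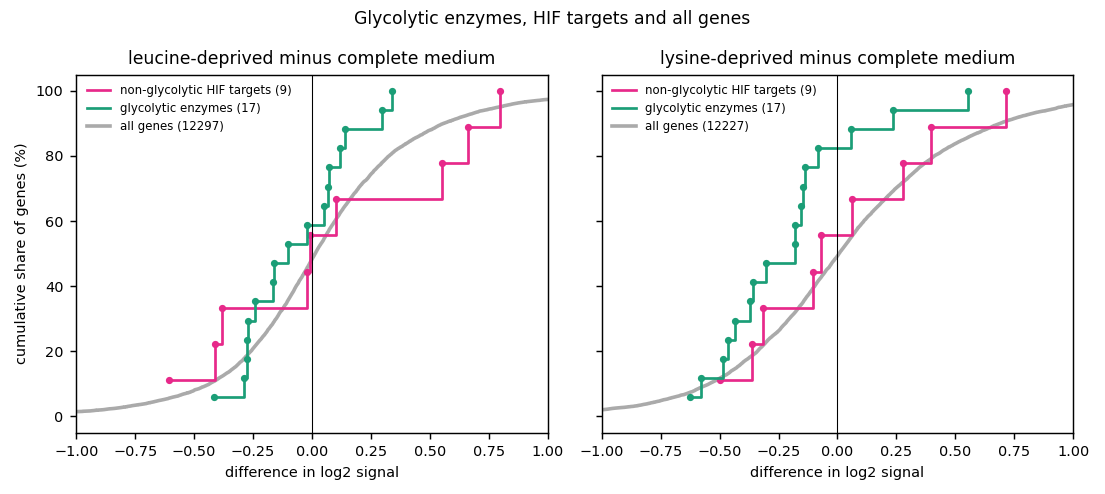
Cumulative share of genes (%) against the difference in log2 signal over complete medium, for the 17 glycolytic enzymes, the 9 HIF targets and all genes, after leucine (left) and lysine removal (right). The enzyme curve lies left of that of all genes over most of its course after lysine removal, where 14 of 17 enzymes are below 0, and the HIF targets spread to both sides.

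Set against each other, the HIF targets had a median 0.09 above that of the enzymes after leucine removal and 0.11 above it after lysine removal. The direction after leucine removal turned to -0.11 without _x_at and _s_at probe sets, while after lysine removal the distance was then 0.44. The classes overlapped. The SD among genes was 0.50 for HIF targets and 0.22 for enzymes after leucine removal, and 0.39 and 0.30 after lysine removal. After leucine removal, 3 of the 9 HIF targets (NDRG1, ADM and EGLN1) lay above all 17 enzymes and 1, EGLN3, below all of them. After lysine removal 1, ADM, lay above all enzymes and 0 below. No test across genes was made.

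Counted over all 34 genes, few passed 1.5-fold. After leucine removal 2 were at least 1.5-fold higher (NDRG1 and ADM), where 9.34% of all genes were, and 1 was lower (EGLN3), where 5.97% were. After lysine removal 1 was higher (ADM), where 13.2% of all genes were, and 2 were lower (ALDOC and PFKFB4), where 8.69% were. Past 2-fold there were 0 in either direction on either array, where 2.66% of all genes were higher and 1.43% lower after leucine removal, and 4.22% and 1.95% after lysine removal. At a log2 difference of 0.32, 6 were higher and 4 lower after leucine removal, where 20.3% and 15.4% of all genes were, and 4 and 11 after lysine removal, where 25.2% and 21.3% were. Each of the counts at 1.5-fold and 2-fold is a smaller share of the 34 than the share of all genes. At 0.32 the 11 lower after lysine removal are a larger share of the 34 than the 21.3% of all genes. The median of the 34 was -0.02 after leucine and -0.17 after lysine removal. On both arrays 17 genes lay below 0, 9 above, and 8 lay on opposite sides; both differences share the complete-medium array, so this agreement has no independent weight.

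Agreement between probe sets bears on which of these small differences repeat within an array. Of the 17 genes with more than 1 kept probe set, 6 had all of them below 0 after leucine removal (ALDOA, ENO1, PGK1, BNIP3, BNIP3L and EGLN3), 3 had all above (GAPDH, HK2 and SLC2A3) and 8 were mixed. After lysine removal 9 had all below 0 (ENO1, GAPDH, PFKL, PGK1, PFKFB2, SLC2A1, PDK3, BNIP3 and EGLN3), 1 had all above (BNIP3L) and 7 were mixed. ENO1, PGK1, BNIP3 and EGLN3 are the 4 genes below 0 on every kept probe set of both arrays. BNIP3 and EGLN3 have 2 kept probe sets each. The matching shares over all genes are not given here, so these counts have no background to be read against. The pooled SD between probe sets of the 17 genes was 0.45 and 0.47, larger than most of their differences.

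Leucine and lysine removal were also set against each other directly. The enzymes had a median of 0.16 for leucine-deprived minus lysine-deprived, with 14 of 17 above 0, where 51.9% of all genes were, and the HIF targets a median of 0.12 with 5 of 9 above 0. At least 1.5-fold higher on the leucine-deprived array were 4 genes, PFKFB2 (0.86), NDRG1 (0.74), PKM (0.73) and SLC2A1 (0.61), where 7.75% of all genes were. The number at least 1.5-fold lower was 0, where 9.26% of all genes were. Past 2-fold there were 0 in either direction, where 1.93% and 2.8% of all genes were higher and lower, and at a log2 difference of 0.32 there were 7 higher and 2 lower, where 19.9% and 19.7% were. Of these 4, NDRG1 had 1 probe set, while the second probe sets of PFKFB2, PKM and SLC2A1 gave 0.02, -1.60 and -0.05. That of PKM lay near the floor on the leucine-deprived array. With the mean of its probe sets PFKFB2 was at 0.44 and PKM at -0.44. Lowest was HK2, at -0.44, higher on the lysine-deprived array. On that array the ACTB 3′ to 5′ ratio was 11.2, against 7.55 on the leucine-deprived one.

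HIF targets outside the 37 genes showed which of them stood apart. Of 38 listed, 36 were measured, with a median of -0.07 after leucine and -0.05 after lysine removal, 15 above and 21 below 0 on each array. At least 1.5-fold higher were 8 and 9 of the 36, where 9.34% and 13.2% of all genes were, and 2 and 2 were lower, where 5.97% and 8.69% were. DDIT4, an mTORC1 inhibitor, had a signal of 12609 on the leucine-deprived, 12820 on the lysine-deprived and 1680 on the complete-medium array, 2.91 and 2.93 higher. STC2, a secreted stanniocalcin, had 2842, 3464 and 450, 2.66 and 2.94 higher. VEGFA, the vascular growth factor, was 2.19 and 2.57 higher on its brightest probe set. It had a signal of 3285 on the leucine-deprived, 4268 on the lysine-deprived and 719 on the complete-medium array, but its 3 kept probe sets ranged from 0.04 to 2.19 and from -0.17 to 2.57. These 3 are known ATF4 targets too. VLDLR, a lipoprotein receptor, was the highest of the genes not marked as ATF4 targets in the list used here, which may not be complete. It had 1880, 1919 and 732, 1.36 and 1.39 higher on 1 probe set. Leaving out the 5 genes marked as ATF4 targets, the median was -0.08 and -0.09 over 31 genes, with 20 below 0 on each array, 4 and 5 at least 1.5-fold higher and 2 and 2 lower, against the same shares of all genes.

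**Figure D4:**
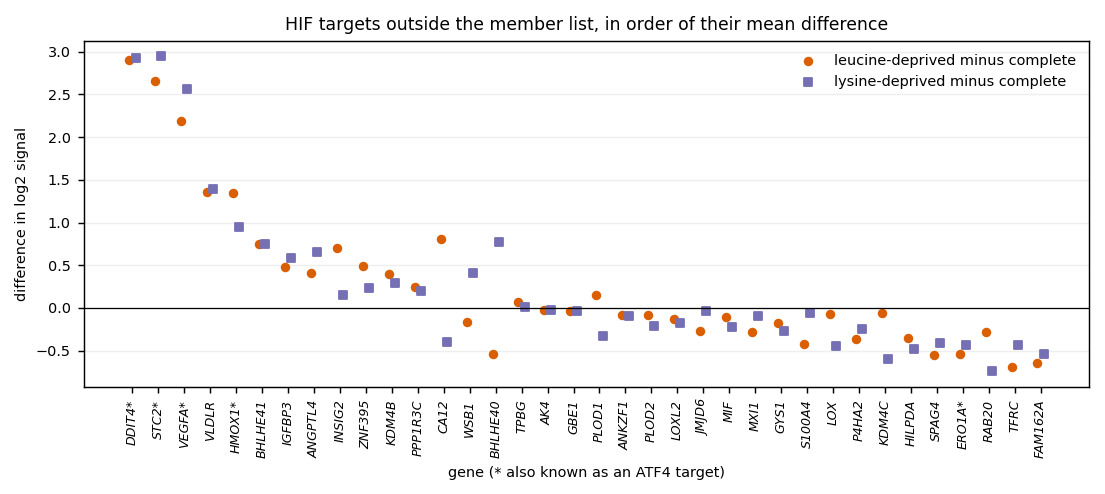
Difference in log2 signal over complete medium of 36 HIF targets outside the 37 genes, ordered by their mean, with circles for leucine and squares for lysine removal; asterisks mark known ATF4 targets. DDIT4, STC2 and VEGFA lie above 2 on both, and most other genes lie near or below 0.

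The machinery that sets HIF activity and the pathways that branch from glycolysis were mixed. Of 14 listed genes of the HIF machinery 13 were measured, and 12 were above the floor on both arrays of each deprivation, with medians of 0.04 and -0.03. CITED2, which competes with HIF for its coactivators, had 403, 702 and 326 on the leucine-deprived, lysine-deprived and complete-medium arrays. It was 0.31 and 1.11 higher, and its other probe set 0.82 and 1.58. CREBBP, such a coactivator, had 3080, 4194 and 2555 and was 0.27 and 0.71 higher, with a second probe set at -0.73 after lysine removal. HIF3A, a HIF relative, had 112, 87.3 and 204, a difference of -0.86 and -1.22, with a second probe set at 0.36 after lysine removal. ARNT2, a HIF partner, had 86.8 and 180 on the leucine- and lysine-deprived arrays, lay at the floor in complete medium and was at least 1.59-fold and 3.29-fold higher. At least 1.5-fold higher were 0 and 2 of the 12 genes, where 9.34% and 13.2% of all genes were, and lower 1 and 2, where 5.97% and 8.69% were.

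Of 33 other genes of glycolysis and pyruvate use, 20 had a kept probe set. Of these, 19 were above the floor on both arrays of each deprivation, all but PDK2. The 19 had medians of -0.04 and -0.05. Among them 0 were at least 1.5-fold higher on each array, where 9.34% and 13.2% of all genes were. On each array 2 were lower, where 5.97% and 8.69% were. FBP1, the gluconeogenic fructose bisphosphatase, had a signal of 90.6 on the leucine-deprived, 65.0 on the lysine-deprived and 223 on the complete-medium array, -1.30 and -1.78. BPGM, a mutase of red cell glycolysis, had 159, 248 and 263, a difference of -0.72 and -0.09, and SLC2A12, a sugar carrier, had 154, 85.5 and 147, a difference of 0.06 and -0.78. PDK2, a further pyruvate dehydrogenase kinase, had 164 and 140 on the leucine- and lysine-deprived arrays, lay at the floor in complete medium and was at least 1.59 and 1.36 higher in log2 signal, while its other probe set was -0.04 and 0.36. Of 8 genes of the pentose phosphate pathway, which makes NADPH and ribose from glucose phosphate, 7 were measured, with medians of -0.12 and -0.20 and 5 of 7 below 0 on each array. RPIA, ribose phosphate isomerase, had 1701, 1397 and 2427, -0.51 and -0.80. H6PD had 109, 146 and 208, a difference of -0.93 and -0.51. PGD had 4669, 3545 and 5279, a difference of -0.18 and -0.57. TKT, transketolase, had 31232, 24912 and 28652, a difference of 0.12 and -0.20. The other probe sets of H6PD, PGD and TKT reached 0.68, 1.36 and 0.79 after lysine removal, so their direction there depends on the probe set, while RPIA has 1.

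**Figure D5:**
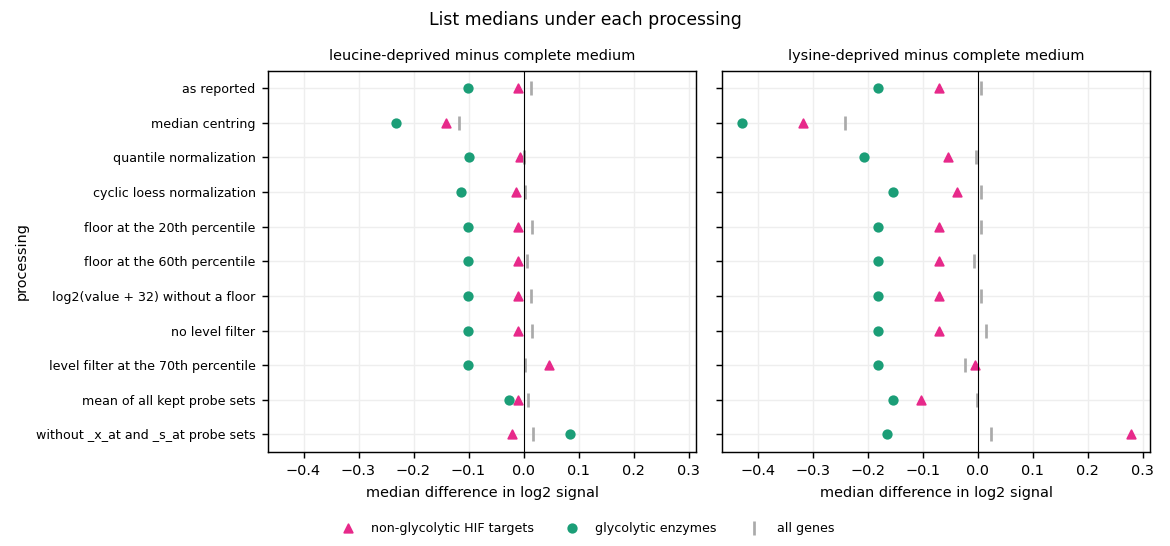
Median difference in log2 signal (horizontal axis) of the enzymes (circles), the HIF targets (triangles) and all genes (grey bars) under each processing (rows), after leucine (left) and lysine removal (right). Enzyme medians lie at or below -0.15 in every row after lysine removal, while after leucine removal they reach 0.09 without probe sets of the _x_at and _s_at kinds.

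Under the processing alternatives the enzyme median stayed below 0 after lysine removal, from -0.43 to -0.15. After leucine removal it ran from -0.23 to 0.09 and was above 0 when probe sets marked as shared or cross-hybridising were left out, which left 8 enzymes. The HIF target median changed sign on both arrays, from -0.14 to 0.05 and from -0.32 to 0.28. Of the 34 genes, 16 were below 0 and 7 above in every alternative after leucine removal, and 23 and 4 after lysine removal. Median centring, among these alternatives, shifted all genes downward, to medians of -0.12 and -0.24. It could thus turn values slightly above 0 but not those below. The matching shares over all genes are not given here.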

How the data were processed

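RNA from khES3 cells in 3 media was measured on 1 array each. Per the labels' protocols, 100 ng of total RNA went into a 3′ in vitro transcription kit. The authors deposited 1 linear signal intensity per probe set, made with MAS5, per the submitters' processing notes; its version and settings: not given in the sources used here. The mean of the deposited intensity values after trimming 2% at either end was 500.1 on each array, so a difference in total mRNA would not be seen.

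Values under an array's 40th percentile, found without control probe sets, were raised to it (56.7, 62.4 and 54.6 for leucine-deprived, lysine-deprived and complete) before log2. Probe sets naming 1 gene were kept at or above the median mean level (23055 probe sets, 12961 genes), and a gene took its brightest kept one. Counts past a fold leave out genes at the floor on either array. Such a value gives a bound. No test was possible with 1 array a group. Gene names come from the platform annotation, promoter windows from RefSeq.

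The members and lists were chosen with earlier results of these data known. Values were printed for members past 1.5-fold, the 4 members of each role with the largest mean absolute difference, members whose kept probe sets differed by over 1, and up to 4 genes of each other pathway list; the other members are given with theirs so that all 34 are shown. Each of these was changed in turn: the scaling (median centring, quantile, cyclic loess), the floor (20th percentile, 60th percentile, log2(value + 32) in its place), the level filter (none, 70th percentile), the choice of probe set (their mean, or none ending in _x_at or _s_at) and the threshold (log2 differences of 0.32 and 1). The steps were tested on simulated arrays. Precision is limited by there being 3 arrays. Software was limma 3.58.1 in R 4.3.3, with pandas 2.3.3 and numpy 2.4.6 in Python 3.11.15.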

Additional observations from a re-analysis of the deposited data

Results flagged for a closer look

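PFKFB2, the heart form of the enzyme that sets the activator of phosphofructokinase, lay on opposite sides of complete medium on the deprived arrays, by at least 0.32 in log2 signal on each. It had a signal of 480 on the leucine-deprived, 265 on the lysine-deprived and 380 on the complete-medium array, so that leucine-deprived minus lysine-deprived was 0.86 in log2 signal. The difference was not tested, because each medium has 1 array. A second kept probe set of the gene had 109, 108 and 132 and gave 0.02 for the same difference. The 3′ to 5′ ratio of ACTB was 7.55 on the leucine-deprived and 11.2 on the lysine-deprived array, and its part in the difference was not tested.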

How the results depend on the processing

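No paired analysis was possible because each medium has 1 array. A list median was taken as moved when it shifted by more than the SD between probe sets of a gene divided by the root of the number of genes. Under median centring the median of all genes was -0.12 after leucine and -0.24 after lysine removal, and 0.13 for leucine-deprived minus lysine-deprived. With it the medians of the 34 genes were -0.15, -0.41 and 0.25, those of the enzymes -0.23 and -0.43 after leucine and lysine removal, and that of the HIF targets -0.32 after lysine removal. Relative to all genes the enzymes stood at -0.11 and -0.19, as without centring. Centring also left 1 gene at least 1.5-fold higher after leucine removal, and 0 higher and 11 lower after lysine removal. The gene lost on both arrays was ADM. Centring moved all genes downward, and the shares of all genes past 1.5-fold under it are not given here. The 11 thus have no background to be read against.

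Without _x_at and _s_at probe sets the enzyme median was 0.085 after leucine removal (8 enzymes), the HIF target median 0.28 after lysine removal (5 genes) and its distance from the enzymes 0.44 (-0.11 after leucine removal). There 2 genes were past 1.5-fold higher after lysine removal, 0 lower after leucine removal and 2 higher for leucine-deprived minus lysine-deprived. With the mean of all kept probe sets the last count was 2 and that of lower genes after leucine removal 0. Without a floor, at log2(value + 32), there were 0 lower after leucine and 1 after lysine removal. The shares of all genes past 1.5-fold under these settings are not given here. At a log2 difference of 0.32, 6 were higher and 4 lower after leucine removal, 4 and 11 after lysine removal, and 7 and 2 for leucine-deprived minus lysine-deprived. At 2-fold each of these counts was 0.

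Of 972 alternative values of the 34 genes 966 moved by less than the SD between probe sets. The other 6 all changed sign. With the mean of probe sets PKM became -0.53 after leucine removal and -0.44 for leucine-deprived minus lysine-deprived. Without _x_at and _s_at probe sets SLC2A1 became -0.29 and -0.049 in the same comparisons, and TPI1 0.79 after leucine and 0.66 after lysine removal. Smaller changes of sign were common: 23, 27 and 24 of the 34 genes kept 1 sign under all settings after leucine removal, after lysine removal and between the deprivations. Outside the 34, among differences past 1.5-fold, CREBBP became -0.0092 with the mean of probe sets, HIF3A 0.36 without _x_at and _s_at probe sets and SLC2A12 0.0072 with the floor at the 60th percentile, each after lysine removal. Below 1.5-fold, PGD (0.39) and H6PD (0.082) turned after lysine removal with the mean of probe sets, and TKT (0.79) without _x_at and _s_at probe sets, among others. These settings read other probe sets of the gene, and for SLC2A12 the floor was above its signal after lysine removal.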
